A study of Oryza sativa with 6 samples.

Results

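The chitinase genes and the defence gene PBZ1 of rice were followed in leaves of 30-day seedlings of a transgenic line and of its parent cultivar. The members were the probe sets that the platform annotation assigns to exactly 1 gene carrying Cht1 to Cht6 or PBZ1 as a symbol or synonym, which gave 8 of the 17905 genes with a probe set on the Affymetrix rice array. They were 7 chitinase genes with 10 probe sets and PBZ1 with 1, together 11 of the 57381 probe sets. Both groups were of the cultivar Xiushui 11 (XS11). The 3 XS11 arrays were labelled wildtype, and the 3 KMD arrays carried the genotype KMD, 1 transgenic line that is known as an insect-resistant Bt rice with a cry1Ab transgene, a fact the labels do not give. The labels call the samples biological replicates and do not say how many plants each held. The comparison asks how transcript levels of the transgenic line depart from those of its parent. Each sample was a bulk leaf extract, in which fewer cells of a type and less RNA per cell cannot be told apart.

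Plant chitinases are secreted or vacuolar enzymes that cut chitin, the polymer of fungal cell walls and insect cuticle, and many are made in larger amounts after infection. The chitin fragments they release are sensed at the cell surface by the rice receptor proteins CEBiP and CERK1. PBZ1 is the probenazole-induced member of the PR10 family of small pathogenesis-related proteins that stay inside the cell, and its transcript is widely used in rice as a marker of defence and of salicylic acid or jasmonate responses.

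The symbols did not each name 1 gene. Cht1 was a synonym of 2 genes, LOC4342115, also listed as RC24, and LOC4338719, also listed as Cht9. Cht2 was a synonym of LOC4349267, also listed as Cht8, and of LOC4338718, also listed as RC7, which had no probe set assigned and was not analysed here. These genes are therefore called Cht1/RC24, Cht1/Cht9 and Cht2/Cht8. The other members were Cht3 (LOC4342114), Cht4 (LOC4336263), Cht5 (LOC4336265), Cht6 (LOC4329920) and PBZ1 (LOC4352491). The values are signals on a linear scale, and since probe sets differ in how well they bind, the signal of one was not set against that of another.

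Array medians lay between 35.5 and 38.7, and the log2 signals correlated at 0.995 to 0.997 within a line and at 0.974 to 0.976 between lines. Leaf transcripts were bright, with RBCS, the small subunit of Rubisco, at 16012 ± 112 in KMD and 16111 ± 304 in XS11 (SD, n = 3 each). Of the 8 leaf marker genes 7 had a probe set, and their summed signal was 50622 to 51549 in KMD arrays and 54067 to 54590 in XS11 arrays. RBCS1 was dim in both lines (19.5 and 15.5). Genes of every list were counted by their brightest probe set. So counted, 0 of the 6 leaf markers tested rose, 3 fell and 3 did not pass. Those that fell were RCA (log2 difference -0.18), LFNR1 (-0.28) and GLO4 (-0.35). A dimmer probe set of GLO1, which is among the 3 that did not pass, was higher in KMD (log2 difference 0.19). Root marker genes were also read: 8 of 12 had a probe set, and their summed signal was 586 to 609 in KMD and 921 to 961 in XS11. Of the 6 root markers tested, 0 rose, 4 fell and 2 did not pass. Beside these leaf and root counts, 18.1% of all tested probe sets were higher in KMD and 21.6% lower. The silicon channel gene Lsi1 stood at a log2 difference of -0.53, the iron transporter gene IRT1 at -0.50, AMT1-2 at -0.63 and OsPIP2;5 at -1.03. Another gene listed as AMT1-2 had no probe set. NRAMP5 stood at 0.05 and the brightest probe set of OsPht1;11 at -0.05. The other tested probe set of OsPht1;11 was lower in KMD, at -0.69. Lsi2 (11.8 in KMD and 14.7 in XS11) and HMA2 (9.89 and 10.4) were at the dim end of the scale. The actin control gave a 3' to 5' signal ratio of 5.79 ± 0.14 on KMD arrays and 4.62 ± 0.30 on XS11 arrays, and the GAPDH control gave 3.48 ± 0.05 and 2.75 ± 0.21. The ubiquitin control was also higher in KMD (1.17 ± 0.02 and 0.99 ± 0.03), while the cyclophilin control was lower (0.91 ± 0.06 and 1.06 ± 0.05). The part of these shifts in the values below was not tested.

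The tested probe sets of PBZ1, Cht2/Cht8 and Cht1/RC24 fell in KMD, and no KMD array reached the lowest XS11 array. The same held for 25.7% of all tested probe sets. PBZ1 and Cht2/Cht8 stood at about the same fraction of their parental signal, 52.1% for PBZ1 and 47.4% and 46.6% for 2 probe sets of Cht2/Cht8, and Cht1/RC24 stood at 60.3%. Cht3 was lower by a small amount that depended on the probe set and the setting. Cht6 overlapped between the lines, and Cht4, Cht5 and Cht1/Cht9 gave signals too dim to test. Of the 7 probe sets tested, 5 were lower in KMD, 0 higher and 2 did not pass at an adjusted p of 0.05 in limma (Benjamini-Hochberg). As background, 39.7% of the 34404 probe sets tested passed, 21.6% lower in KMD and 18.1% higher. The median log2 difference was -0.67 over the 7 tested probe sets and 0.0017 over all tested ones. That the group leaned lower was already known when its members were chosen, so the counts describe it and are not independent evidence.

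**Figure D1:**
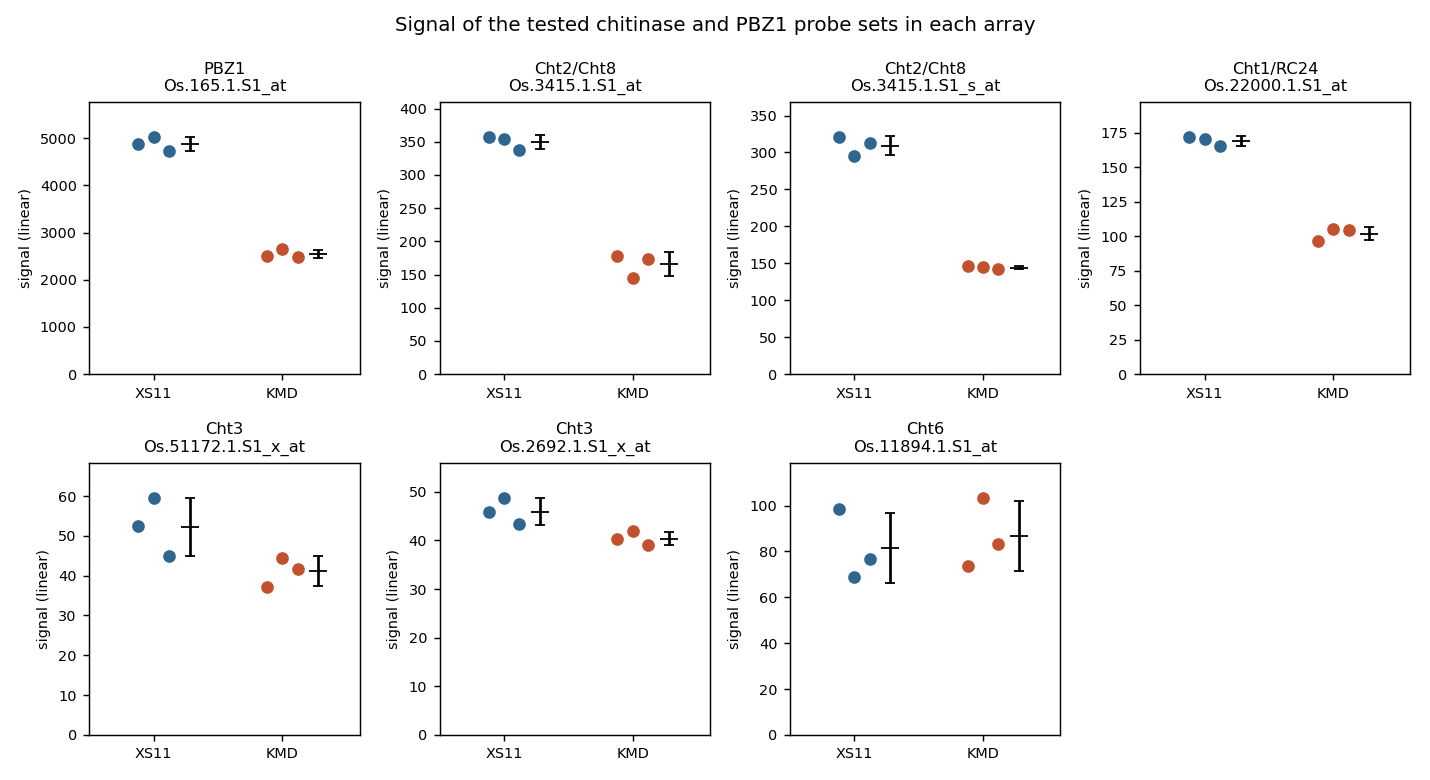
Signal on a linear scale (vertical axis, from 0) of the 7 tested probe sets in each array, XS11 in blue and KMD in orange. Dots are single arrays and the black marks are the mean ± SD of 3 arrays. PBZ1, both probe sets of Cht2/Cht8 and Cht1/RC24 lie well apart, while Cht6 overlaps between the lines.

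PBZ1 was read by 1 probe set. Its signal was 2510, 2644 and 2479 in KMD replicates 1 to 3 and 4887, 5019 and 4732 in XS11 replicates 1 to 3. The highest KMD array thus lay far under the lowest XS11 array, and the arrays of a line differed little (coefficients of variation of 3.45% in KMD and 2.94% in XS11). The log2 difference, KMD minus XS11 on the scale log2(signal + 11.17), was -0.94 (SE 0.04, 95% interval -1.01 to -0.86), 1.91-fold lower in KMD, with an adjusted p of 2.43e-10 in limma. Of all tested probe sets, 1.45% had a difference as low or lower.

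Cht2/Cht8 had 3 probe sets. The first read 179, 145 and 173 in the KMD arrays and 357, 354 and 337 in the XS11 arrays. The second KMD array was the lowest and gave this probe set its wider spread. The log2 difference was -1.03 (SE 0.07, 95% interval -1.18 to -0.88, limma adjusted p = 5.74e-08). Its s_at probe set, designed on the same source sequence and so no separate measurement of the gene, read 146, 144 and 142 in KMD and 320, 295 and 313 in XS11. Here all KMD arrays were alike, and the log2 difference was -1.05 (SE 0.05, limma adjusted p = 3.18e-09), 2.06-fold lower. The suffixes s_at and x_at mark probe sets that can also bind transcripts of related genes, which bears on a family such as the chitinases.

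The third probe set of Cht2/Cht8, designed on another source sequence, did not show this. It read 7.41, 6.03 and 6.00 in KMD and 7.37, 6.97 and 7.85 in XS11. All 6 values were under 11.17, the 10th percentile of all signals, and the lines overlapped, so it gave no usable level in either line. The fall of Cht2/Cht8 therefore rested on 2 probe sets of 1 source sequence.

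Cht1/RC24, a chitinase also listed as OsChia1a, was read by 1 probe set, at 96.7, 105 and 104 in KMD and 172, 170 and 165 in XS11. The arrays of the lines were well apart, and the log2 difference was -0.67 (SE 0.06, 95% interval -0.80 to -0.54), 1.59-fold lower in KMD (limma adjusted p = 1.01e-06). Of all tested probe sets, 3.31% had a difference as low or lower.

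Cht3 is the gene next to Cht1/RC24 in the naming table's order, and it had 2 probe sets of the x_at type. The first read 37.2, 44.5 and 41.7 in KMD and 52.4, 59.5 and 45.0 in XS11. The lines did not overlap, but the highest KMD array and the lowest XS11 array nearly met. The log2 difference was -0.28 (SE 0.10, 95% interval -0.49 to -0.06, limma adjusted p = 0.040). The call was lost with quantile normalization (limma adjusted p = 0.056, with 19.7% of all tested probe sets called lower), with the replicate number as a block (20.0% called lower), in the test against a 1.2-fold change (7.46% called lower) and without KMD replicate 1 (-0.22), KMD replicate 3 (-0.28), XS11 replicate 1 (-0.27) or XS11 replicate 2 (-0.19). The second read 40.3, 41.9 and 39.1 in KMD and 45.8, 48.7 and 43.3 in XS11, again without overlap, and did not pass (log2 difference -0.15, 95% interval -0.32 to 0.03, limma adjusted p = 0.178). In all, 6 of the 7 tested probe sets were lower in every KMD array, where 25.7% of all tested ones were (23.1% were higher in every KMD array, 48.8% either way).

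Cht6 was read by 1 probe set, at 73.6, 103 and 83.2 in KMD and 98.3, 68.9 and 76.7 in XS11. High and low arrays occurred in both lines, with coefficients of variation of 17.5% and 18.8%. The log2 difference was 0.08 (SE 0.12, limma adjusted p = 0.65) with a 95% interval from -0.18 to 0.35, which does not hold the differences of PBZ1, Cht2/Cht8 or Cht1/RC24. Its sign turned without KMD replicate 2 (-0.04) and without XS11 replicate 2 (-0.01).

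The remaining 3 chitinase genes were under the filter, whose bound corresponds to a signal of 27.7. Cht5, a further chitinase also listed as OsChia4a, read 13.6, 17.5 and 19.6 in KMD and 20.5, 18.1 and 17.5 in XS11. Cht4, also listed as OsChia2b, read 7.83, 10.5 and 5.49 in KMD and 9.52, 6.79 and 7.77 in XS11. Cht1/Cht9 read 8.35, 6.37 and 6.17 in KMD and 6.35, 7.10 and 11.3 in XS11. All overlapped between the lines. When all probe sets were tested without the filter, which called 13.4% of them lower, none of these genes passed (limma adjusted p of 0.605 for Cht5, 0.96 for Cht4 and 0.618 for Cht1/Cht9). Their 95% intervals were -0.31 to 0.12 for Cht5, -0.23 to 0.20 for Cht4 and -0.31 to 0.12 for Cht1/Cht9, but differences of such dim probe sets are held down by the added 11.17 and do not show that the transcripts were alike.

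**Figure D2:**
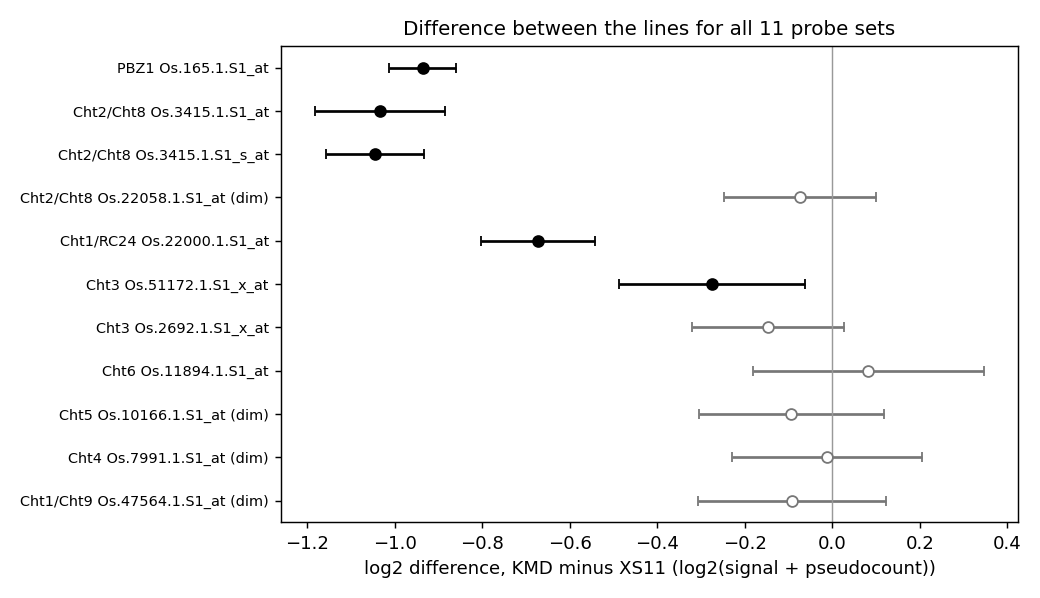
Log2 difference, KMD minus XS11 (horizontal axis), of all 11 probe sets with 95% limma intervals. Filled points passed the adjusted threshold, open points did not, and probe sets marked dim were under the filter, with intervals from the fit without it. The filled points are PBZ1, the 2 brighter probe sets of Cht2/Cht8, Cht1/RC24 and 1 of the 2 of Cht3, and they run from -1.05 to -0.28.

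The chitinase genes were then set against PBZ1 by the difference of their log2 differences, taken within each array, for the 4 chitinase genes that could be tested. Exact two-sided permutation tests over the 6 arrays were used, in which 3 against 3 allows no p under 0.1. Cht2/Cht8 and PBZ1 differed by -0.10, and the arrays of the lines overlapped (exact permutation p = 0.9). This gap, read from the brightest probe set of Cht2/Cht8, changed sign without KMD replicate 2, to 0.02. The order of the falls on that probe set thus rested on 1 array. Without the same array the s_at probe set of Cht2/Cht8 stayed lower than PBZ1 (log2 differences -1.05 and -0.96). The log2 difference of Cht1/RC24 was 0.26 above that of PBZ1, that of Cht3 0.66 above and that of Cht6 1.02 above. In these last 3 pairs the arrays of the lines did not overlap (exact permutation p = 0.1 each, the smallest possible, and 0.133 after adjustment over the 4 pairs, so none passed). For the neighbours Cht1/RC24 and Cht3, a pair chosen after their values were seen, Cht1/RC24 minus Cht3 was -0.40 with no overlap between the lines (exact permutation p = 0.1).

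The deposited signals set each gene against the rest of its own array, and this choice mattered for the smaller changes. The 36 poly-A spike-in probe sets, which read RNA added before labelling, were higher in KMD by 0.62 on the log2 scale. With arrays centred on them the median of all tested probe sets moved from 0.0017 to -0.62 and 99.0% of all calls were lower in KMD, against 54.5% without centring. On that scale all 7 tested member probe sets were called lower, as were 94.8% of all tested probe sets. PBZ1 stood at -1.56 and Cht2/Cht8 at -1.65 and -1.67, while Cht6 turned to -0.54, less low than the median. Quantile normalization left PBZ1 at -0.88, Cht2/Cht8 at -0.99 and -1.01 and Cht1/RC24 at -0.65.

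**Figure D3:**
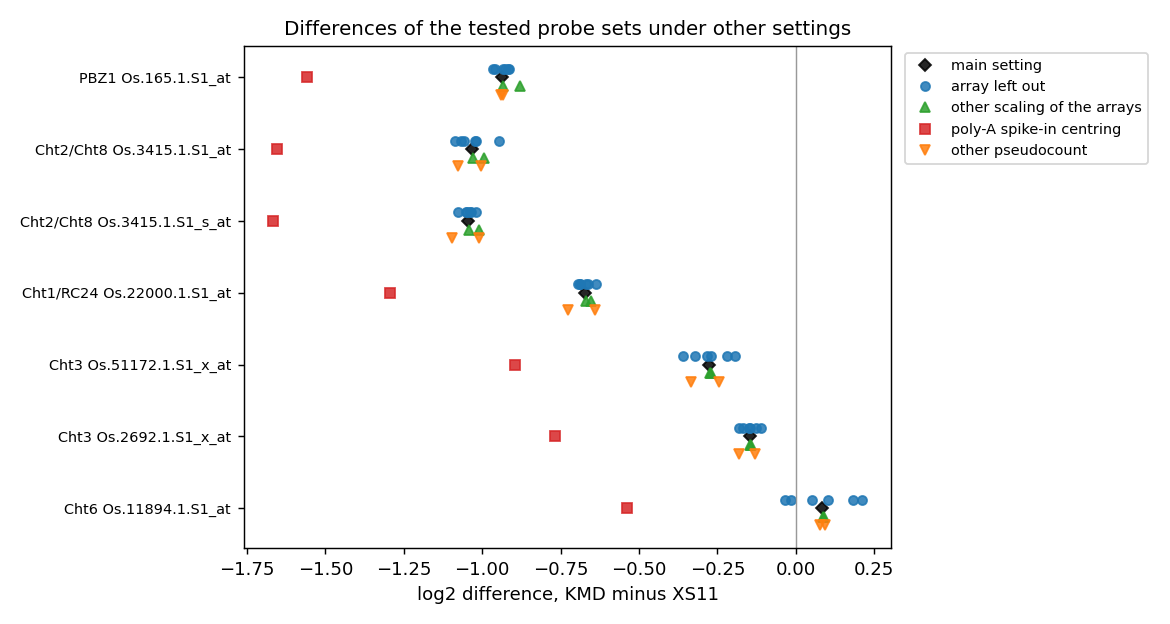
Log2 difference, KMD minus XS11 (horizontal axis), of the 7 tested probe sets under the main setting (black), with each array left out (blue), with quantile normalization or median centring (green), with poly-A spike-in centring (red) and with other pseudocounts (orange). Leaving out an array keeps PBZ1 between -0.96 and -0.92 and moves Cht6 from -0.04 to 0.21, and spike-in centring shifts every probe set down.

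Other chitinase genes of the array differed by less than PBZ1, Cht2/Cht8 and Cht1/RC24 and by about as much as Cht3 or less. Of the 4 genes outside the members with a Cht symbol, 3 had a probe set and were tested. Cht10 and Cht11 fell while Cht7 did not pass, where 21.6% of all tested probe sets were lower. Cht11 went from 892 ± 20.3 in XS11 to 748 ± 6.68 in KMD (SD, n = 3 each), and the log2 difference of Cht11 was -0.25 (SE 0.04, limma adjusted p = 7.77e-05). Cht10 went from 175 ± 12.4 to 140 ± 2.74 (log2 difference -0.29, SE 0.06, limma adjusted p = 0.0019). Cht7, the gene next to Cht1/Cht9, read 31.9 ± 3.85 in KMD and 33.8 ± 7.26 in XS11. Of 3 further genes with a chitinase synonym, 1 could be tested: Rcb4 stood at -0.12 (limma adjusted p = 0.065). RIXI, a xylanase inhibitor of chitinase-like fold and the only other pathogenesis-related gene matched, was dim in both lines, at 8.03 ± 1.79 in KMD and 6.24 ± 0.80 in XS11.

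Among genes that act in sensing chitin and in the signalling behind it, 2 of 10 tested rose, 2 fell and 6 did not pass, with a median log2 difference of 0.01. These shares are near those of all tested probe sets, of which 18.1% were higher and 21.6% lower. The receptor genes themselves went apart: CEBIP, the chitin-binding receptor, rose by 0.44 (SE 0.09, limma adjusted p = 0.00094), and CERK1, the receptor kinase it works with, fell by 0.26 (SE 0.05, limma adjusted p = 0.00098). RBOHB, an NADPH oxidase that makes reactive oxygen at the cell surface, fell most, from 221 ± 7.58 to 124 ± 6.66 (log2 difference -0.77, SE 0.06). MPK3/MAPK2, a MAP kinase gene, rose by 0.15 (limma adjusted p = 0.041), though its arrays overlapped between the lines. Both rises were smaller than the 0.62 by which the spike-ins differed.

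Of 11 tested genes of the salicylic acid response, 4 were higher, 4 lower and 3 did not pass, with a median of 0.01, against the same 18.1% higher and 21.6% lower over all tested probe sets. NH3, counted among those that did not pass, had a dimmer probe set that was higher in KMD, at 0.25. NH1, the rice NPR1 gene and a co-activator of pathogenesis-related genes, fell from 152 ± 6.35 to 101 ± 5.19 (log2 difference -0.55, SE 0.06, limma adjusted p = 1.24e-05). PAL, phenylalanine ammonia-lyase, fell on all 5 of its probe sets, by 0.54 to 1.13 on the log2 scale. WRKY24, a WRKY transcription factor gene, rose from 102 ± 7.52 to 211 ± 4.53 (log2 difference 0.97), and RAR1 (0.33) and WRKY76 (0.27) rose by less. The rises of RAR1 and WRKY76 were smaller than the 0.62 by which the spike-ins differed.

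**Figure D4:**
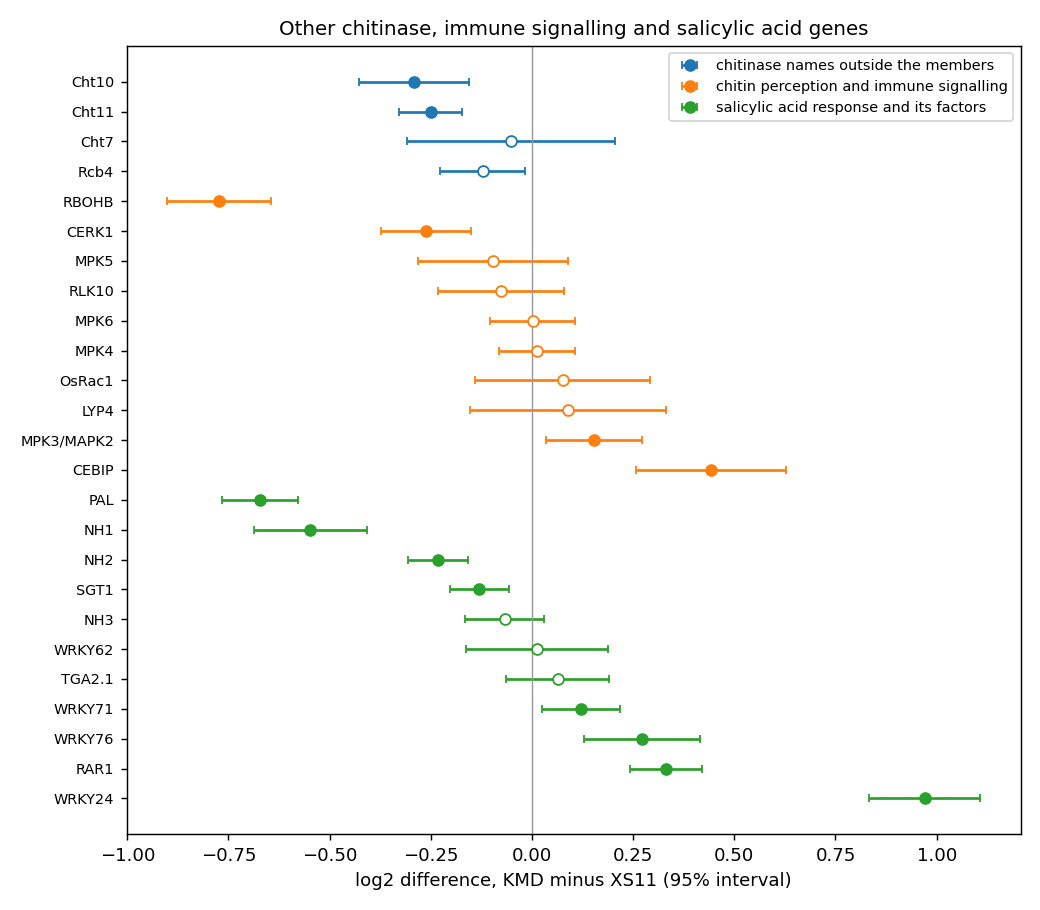
Log2 difference, KMD minus XS11 (horizontal axis), of the brightest probe set of each tested gene, with 95% limma intervals. Blue marks chitinase names outside the members, orange chitin perception and immune signalling and green the salicylic acid response. Filled points passed the adjusted threshold. The blue points lie between -0.29 and -0.05, and the other lists spread to both sides of 0.

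Genes flanking the members were called about as often as probe sets of the whole array. Among the nearest 3 protein-coding genes on each side of the members with a probe set, 33 probe sets of 25 genes could be tested, of which 5 were higher, 9 lower and 19 did not pass, with a median log2 difference of -0.06, where 18.1% of all tested probe sets were higher and 21.6% lower. The following neighbours were picked after their values were seen. LOC4352488, the third gene before PBZ1, fell from 1338 ± 46.0 in XS11 to 360 ± 14.9 in KMD, a log2 difference of -1.86 (SE 0.04, limma adjusted p = 1.93e-12). LOC4352490, which lies between it and PBZ1, stood at 0.19 (SE 0.07), and CSLD4, a cellulose synthase-like gene just after PBZ1, at -0.34 (SE 0.07). On either side of Cht2/Cht8, LOC9270011 stood at -0.20 and LOC4349269 at -0.79, the latter from 44.6 ± 9.05 to 20.8 ± 0.74. Other neighbours rose. LOC4338717, the second gene before Cht1/Cht9, went from 63.3 ± 6.12 in XS11 to 128 ± 7.87 in KMD (log2 difference 0.91). LOC4336262, just before Cht4, stood at 0.54. Several of the lower calls were probe sets of the same gene, Q-enzyme near Cht1/RC24 and Cht3, at -0.31, -0.32 and -0.26. The tables used here give no function for the genes named by a LOC number.

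By Euclidean distance between log2 signals centred on their mean over the 6 arrays, the named genes most like PBZ1 were ALN, an allantoinase of ureide breakdown (distance 0.07), and GLN1-1, a cytosolic glutamine synthetase (0.08), among 2554 probe sets of named genes. Both had close to the fall of PBZ1, from 2200 ± 68.0 to 1106 ± 22.4 for ALN and from 5474 ± 58.4 to 2763 ± 76.2 for GLN1-1. For Cht1/RC24 the nearest were BBD2 (0.04) and the ammonium transporter gene AMT1 (0.05). For Cht2/Cht8 they were GUT1 and NAAT1, a nicotianamine aminotransferase of iron uptake (0.19 each). Cht3 was nearest to CSLE2 (0.08) and NCL1 (0.12), and Cht6 to GRF8 (0.23) and NOL (0.28). With 3 arrays a line, such a distance depends mostly on the size of the difference between the lines.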

How the data were processed

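The authors deposited 1 linear intensity for each probe set of each array, and MAS5 is named in the submitters' processing notes. Its version and scaling target are not stated there. Gene names came from the platform annotation and the RefSeq table of assembly ASM3414082v1, used for names and gene order only; all 17905 genes matched. Signals were transformed as log2(signal + 11.17), 11.17 being the 10th percentile of all values. The 60% of probe sets with the highest mean log2 signal were tested, with all 64 reporter and without the 123 control probe sets (34404). KMD was set against XS11 with limma 3.58.1 (R 4.3.3; eBayes with an intensity trend, two-sided, Benjamini-Hochberg threshold 0.05), tested on simulated data. Precision is limited by having 3 arrays a line, and p-values measure only the spread between these samples.

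The members and lists were chosen with earlier results of these data known. Other lists were matched by symbol or synonym, at most 5 called genes a list are named by size of difference (the lowest adjusted p where none passed), and 5 matches that belonged to other genes or to another list were left out after matching. The list of further chitinase names, the neighbouring genes and the pair Cht1/RC24 and Cht3 were added after seeing the data. Alternatives were other pseudocounts, filters, scalings and limma options, the replicate block, a test against 1.2-fold and leaving out each array. Python 3.11.15 with pandas 2.3.3, numpy 2.4.6, scipy 1.17.1 and matplotlib 3.10.9 did the rest. The labels name no batch.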

Additional observations from a re-analysis of the deposited data

How the results depend on the processing

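PBZ1, Cht1/RC24 and the 2 brighter probe sets of Cht2/Cht8 kept their direction and their call under every alternative run. With single arrays left out, PBZ1 ranged from -0.96 to -0.92, Cht1/RC24 from -0.69 to -0.64, and Cht2/Cht8 from -1.09 to -0.95 and from -1.08 to -1.02. The first Cht3 probe set lost its call with quantile normalization (-0.27), with the replicate block (-0.28), in the test against 1.2-fold (-0.28), and in 4 of the 6 fits without an array (range -0.36 to -0.19), and both Cht3 probe sets fell under the filter of the upper 40% of signal, so no value was had there. The second Cht3 probe set passed on the poly-A spike-in scale (-0.77). Cht6 changed sign on that scale (-0.54) and without KMD replicate 2 or XS11 replicate 2 (-0.04 and -0.01; range -0.0356 to 0.21). The gap of the brightest Cht2/Cht8 probe set to PBZ1 ranged from -0.16 to 0.0189 without single arrays and changed sign without KMD replicate 2. The cause of these changes was not tested. Between 4 and 7 member probe sets were called lower and 0 higher. The 7 came with spike-in centring, which called 94.8% of all tested probe sets lower. The main setting called 5 lower (21.6% of all tested) and the test against 1.2-fold 4 (7.46% of all tested). Counting the 2 probe sets of 1 source sequence once gave 4. The labels do not say whether arrays of the same replicate number were handled together. Deviations from the line mean correlated at -0.24, -0.01 and -0.26 for same-numbered arrays and at -0.06 to 0.32 for differently numbered ones. With 3 arrays a line such correlations can neither show nor exclude a shared batch. The replicate block moved the calls from 13660 to 12450. The test against 1.2-fold called 4102 of all tested probe sets and spike-in centring 32924, against 13660. Dim probe sets limit what can be said of Cht4, Cht5 and Cht1/Cht9.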
